A study of Mus musculus with 30 samples.

Results

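Subcutaneous B16F10 melanomas grown in wild type mice and treated with an agonist antibody to CD40 were compared with tumors of the same hosts treated with a control antibody. The comparison took the 3 libraries titled WT with anti-CD40 and the 5 titled WT with IgG, which are 8 of the 30 RNA-seq libraries of the series, and tested every gene. The hosts were C57BL/6 female mice with the genotype label ARE-del +/+. B16F10 is a transplanted mouse melanoma line, injected under the skin of the right flank, so the host genotype describes the mouse and not the melanoma cells. Tumors grew for 7 days before antibodies were given 2 times a week. The treated group received 0.25 mg of the CD40 agonist clone FGK115B3, made as ascites, and the control group received rat IgG2A, whose dose is not given in the sources used here. All 30 libraries entered the main fit, which took its estimate of spread from all groups. Other groups are described here mainly where they show how this comparison differs. They are 3 WT tumors given anti-CD40 together with anti-PD1 (the combination), and tumors of heterozygous hosts (titled HET) given anti-CD40 (4 libraries) or IgG (4 libraries).

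CD40 is a receptor of the TNF receptor family carried by dendritic cells, macrophages and B cells. Its ligand on helper T cells, or an agonist antibody, recruits TRAF adaptor proteins to the receptor's tail, and these pass the signal to the NF-kB transcription factors. In antigen-presenting cells this pathway is known to raise costimulatory molecules, interleukin 12 and chemokines, and it is used in tumor models to prime T cells.

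RNA came from whole frozen tumors, so every value is a mixture of melanoma cells, host cells and any attached tissue, and fewer cells of a type cannot be told apart from less RNA per cell. The IgG libraries held 17.6 to 22.6 M reads (M, mega) and the anti-CD40 libraries 21.9 to 25.1 M. Levels below are CPM, a gene's reads per mega of the effective library size that the deposited values imply, and differences are on the log2 scale. Melanocyte genes identified the tumors in all 8 libraries: Dct, a melanin synthesis enzyme, lay between 7442 and 11171 CPM, and Pmel, the melanosome matrix protein, between 5717 and 8574 CPM. Nothing in the labels says that the libraries of a group came from separate mice, so p-values measure only the spread between samples. For limma these are all 30 libraries of the series, and for the permutation tests the 8 compared. The titles also carry an L number that the labels do not explain: all 5 WT IgG libraries have L5 and all 3 WT anti-CD40 libraries have L6, so the L number and the treatment cannot be told apart. L6 also holds the 3 WT combination libraries, WT anti-PD1 replicate 4 and HET IgG replicate 1. WT anti-PD1 is the only group with libraries under both L5 and L6. A fit with the L number therefore takes the shift between L5 and L6 from WT anti-PD1 replicate 4 against replicates 1 to 3 of that group.

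One treated library stood apart. Anti-CD40 replicate 2 lay at -121.4 on the first principal component of the 8 libraries (60.6% of the variance), while anti-CD40 replicates 1 and 3 lay at 35.1 and -21.8 and the IgG libraries ran from -45.4 to 55.5. IgG replicate 1, at -45.4, was the control library nearest to it. Both libraries carried RNA of skin: the mean log2 level of all keratinocyte genes listed was 4.71 in anti-CD40 replicate 2 and 2.53 in IgG replicate 1, against 1.53 and -1.30 in anti-CD40 replicates 3 and 1 and -1.82 to -0.62 in the other IgG libraries. Where 1 library carried much of a value, the value without it is given beside the result.

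No gene passed the test between anti-CD40 and IgG in wild type hosts. Of 15002 genes tested with limma, 0 (0%) had a Benjamini-Hochberg adjusted p under 0.05, and limma-voom on the recovered reads also called 0. The smallest limma adjusted p was 0.62. At an unadjusted p under 0.05, limma gave 777 genes and voom 582, where the threshold alone would give 750 of 15002. The 777 divided into 408 higher (2.72%) and 369 lower (2.46%) with anti-CD40. The median difference over all genes was -0.01, and 48.5% of genes were higher with anti-CD40. With only the 8 libraries in the fit the unadjusted count was 356, with 108 higher and 248 lower. Without anti-CD40 replicate 2 it was 75. Of the 408 higher genes, 373 (91.4%) had their highest value of the 8 libraries in that replicate, which held the highest value of 29.9% of all genes tested. It also held the lowest value of 337 (91.3%) of the 369 lower genes, against 35.2% of all genes.

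Every anti-CD40 library lay above every IgG library for 104 genes (0.693%) and below every IgG library for 156 genes (1.04%). Among the 12116 of the tested genes with a mean log2 value of at least 1, these were 56 and 128. The 12 genes of each direction with the smallest unadjusted p are named below, and limma gave all 24 an adjusted p of 0.62, so none of them is a call.

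**Figure D1:**
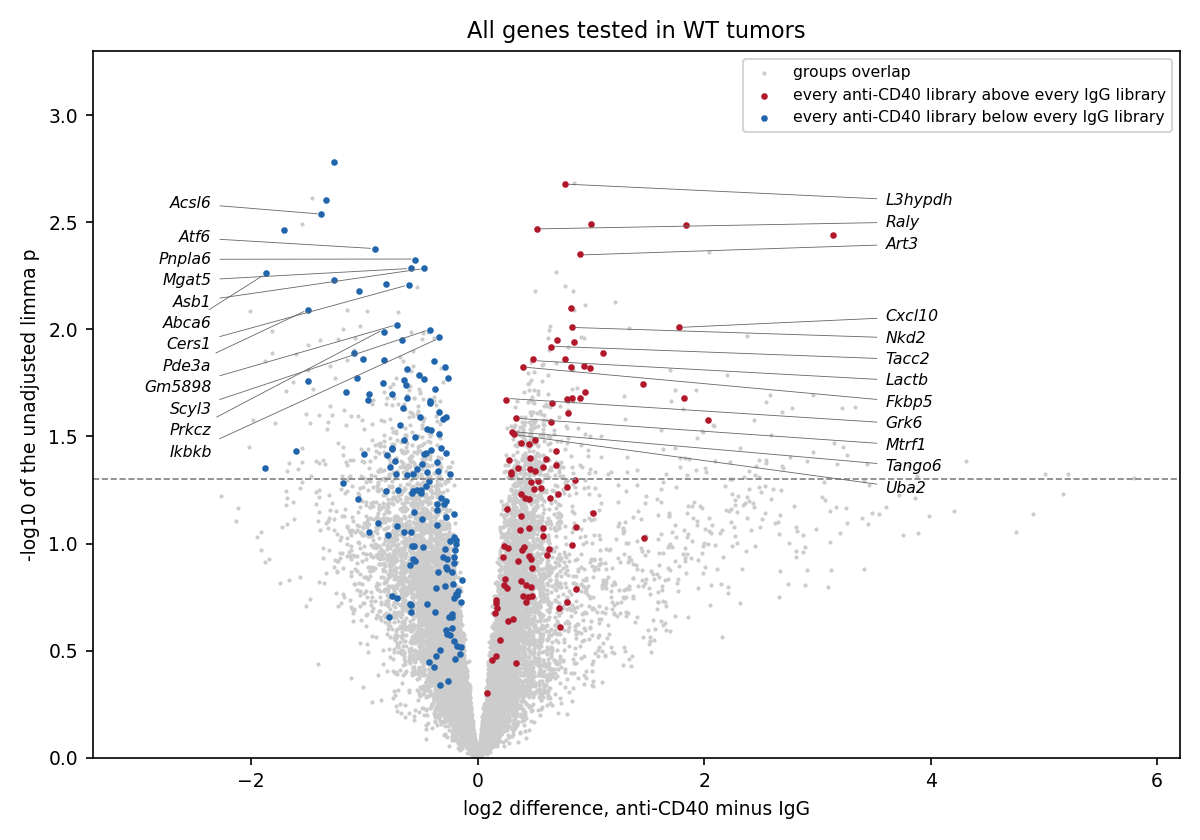
Each point is 1 of the 15002 genes tested in WT tumors, placed by its log2 difference (anti-CD40 minus IgG, x axis) and by the -log10 of its unadjusted limma p (y axis). The dashed line marks the 0.05 level. Colored points are genes whose 3 anti-CD40 and 5 IgG values do not overlap, 104 higher and 156 lower, and no gene reached an adjusted p under 0.05.

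Cxcl10 was the chemokine among the genes that did not overlap. It encodes an interferon-inducible chemokine that attracts T cells through the receptor CXCR3, and it lies on chromosome 5 (mm10 chr5:92346638-92348889, minus strand). Its level was 14.3, 37.0 and 23 CPM in anti-CD40 replicates 1 to 3, and 7.12, 6.02, 4.81, 12.5 and 4.97 CPM in IgG replicates 1 to 5. All 3 treated tumors were above all 5 controls, with the narrowest gap between anti-CD40 replicate 1 and IgG replicate 4. The log2 difference was 1.78 ± 0.64 (SE; limma unadjusted p = 0.0098, Benjamini-Hochberg adjusted p = 0.62), and 1.44 without anti-CD40 replicate 2. The other L6 libraries had values in the same range: 16.5, 12.2 and 27.5 CPM in the combination, 13 in WT anti-PD1 replicate 4 and 23.9 in HET IgG replicate 1, the last 2 of which received no anti-CD40. Of these 5 libraries, 4 lay above the WT IgG range. Whether the Cxcl10 difference goes with the antibody or with the L number cannot be told apart.

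The stretch upstream of Cxcl10 is shown because the gene is a textbook target of both NF-kB and interferon-activated factors. It covers bases -250 to -101 from the start site (GRCm38.p6 from RefSeq, chr5:92348990-92349139, minus strand, written 5′ to 3′). Capitals mark, from left to right, a match to the interferon-response type motif at -213 and a match to the NF-kB type motif at -159.

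Cxcl10 upstream: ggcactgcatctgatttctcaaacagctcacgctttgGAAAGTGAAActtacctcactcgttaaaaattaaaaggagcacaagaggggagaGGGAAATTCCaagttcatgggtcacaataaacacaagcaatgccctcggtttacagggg

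Both motifs were searched on both strands of windows from 250 bases before to 50 after each gene's start. Of 27025 such windows, 3.49% held the interferon type and 1.43% the NF-kB type, and 17 (0.0629%) held both. Among the listed interferon-gamma response genes with a window, 11 of 17 held the interferon type and 3 of 17 held both. Among the inflammatory cytokine and chemokine genes, 5 of 15 held the NF-kB type and 0 the interferon type. A match describes letters and is not evidence that a factor bound there.

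Art3, an ADP-ribosyltransferase family gene, spans Cxcl10 on the opposite strand (chr5:92331827-92414628). It stood at 12.8, 15.3 and 16.9 CPM with anti-CD40 and 12.1, 6.02, 7.59, 9.12 and 6.19 CPM with IgG, a log2 difference of 0.90 ± 0.29. Whether reads were counted by strand is not given in the sources used here, so some reads of Cxcl10 and Art3 may not be told apart. Overlap was taken over whole genes, and whether their exons overlap was not examined.

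The other higher genes had varied functions. L3hypdh, a dehydratase of hydroxyproline breakdown (chr12:72073428-72085439), was at 15.4, 27.6 and 21.6 CPM with anti-CD40 and at 14.6, 11.4, 14.2, 11.9 and 9.84 CPM with IgG, a log2 difference of 0.77 ± 0.23. Raly, an RNA-binding protein (chr2:154791096-154867261), was at 258, 403 and 265 CPM against 250, 184, 215, 205 and 203 CPM. In both genes anti-CD40 replicate 2 was the highest library, and replicate 1 was close to IgG replicate 1. Nkd2, an inhibitor of Wnt signaling (chr13:73818534-73847631), was at 7.95, 5.94 and 6.87 CPM against 3.82, 3.98, 4.59, 2.91 and 4.13 CPM, a log2 difference of 0.83 ± 0.30, and here replicate 2 was the lowest treated library. Fkbp5, a glucocorticoid-inducible co-chaperone of steroid receptors, was at 95.5, 103 and 86.4 CPM against 84.7, 67.4, 60.8, 86.3 and 62.4 CPM, where the lowest treated and highest control values nearly met. The remaining higher genes were Tacc2 (centrosome and microtubules), Lactb (a mitochondrial protein), Grk6 (a kinase of G protein-coupled receptors), Mtrf1 (mitochondrial translation termination), Tango6 and Uba2 (a subunit of the SUMO-activating enzyme), with log2 differences from 0.25 for Grk6 to 0.65 for Tacc2. Leaving out anti-CD40 replicate 2, the difference was 0.31 for Raly (0.52 with it), 0.22 for Mtrf1 (0.34) and 0.19 for Tango6 (0.30). Adding the L number to the fit, a shift that rests on WT anti-PD1 replicate 4, left Uba2 at 0.00 and Mtrf1 at 0.07. In that fit L3hypdh (0.39), Lactb (0.34) and Tango6 (0.12) were also smaller. Cxcl10 (2.41), Art3 (1.63), Nkd2 (1.15), Tacc2 (0.80), Raly (0.57), Fkbp5 (0.48) and Grk6 (0.29) were larger. The same contrast in HET hosts, which shares no library with this one, gave -0.19 for Tango6 and positive values for the other 11, from 0.02 for Mtrf1 to 1.52 for Cxcl10. That contrast held skin RNA as well. The mean keratinocyte level was -1.26, -1.58, 3.43 and 3.7 in HET anti-CD40 replicates 1 to 4, and -1.72 to -0.69 in HET IgG. The share of all genes with the same direction in both hosts is not given here. In the 5 other L6 libraries, 18 of 60 values of the 12 higher genes lay above the WT IgG range. The share of such values over all genes is not given here, so no link to the L number is drawn from this count.

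The genes that were lower with anti-CD40 included enzymes of lipids and sugars and an NF-kB pathway kinase. Acsl6, which activates long-chain fatty acids (chr11:54303798-54364756), was at 1.33, 1.20 and 2.42 CPM with anti-CD40 and 4.50, 8.80, 3.62, 2.96 and 3.18 CPM with IgG, a log2 difference of -1.38 ± 0.42. Atf6, a sensor of protein folding stress in the endoplasmic reticulum (chr1:170704674-170867771), was at 184, 85.7 and 143 CPM against 209, 392, 202, 257 and 214 CPM, a log2 difference of -0.91 ± 0.29. Mgat5, which branches N-linked sugars, was at 369, 267 and 338 CPM against 444 to 505 CPM. The gap between the groups was wide for Mgat5 and narrow for Atf6, whose replicate 1 was near the lowest controls. Ikbkb, the IKK beta kinase that releases NF-kB from its inhibitors (chr8:22659212-22706589), was at 89.5, 60.3 and 84.1 CPM against 89.8, 99.8, 101, 98.1 and 99.3 CPM, a log2 difference of -0.34 ± 0.13, and anti-CD40 replicate 1 and IgG replicate 1 were almost equal. The Ikbkb difference was -0.17 without anti-CD40 replicate 2 (limma unadjusted p = 0.19).

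Among the remaining lower genes, Abca6, a lipid transporter of the ABC family, differed by -1.87 and Pde3a, a cyclic nucleotide phosphodiesterase, by -1.50 on the log2 scale. Abca6 differed by -1.20 without anti-CD40 replicate 2. Pde3a was highest in IgG replicate 3, at 32.5 CPM, where the other IgG libraries ran from 3.72 to 8.45 CPM, and differed by -0.98 without that library. Prkcz (an atypical protein kinase C), the pseudogene Gm5898, Cers1 (ceramide synthesis), Pnpla6 (a phospholipase), Asb1 and Scyl3 had log2 differences from -0.83 to -0.42. Gm5898 differed by -0.45 (in place of -0.71) and Scyl3 by -0.22 (in place of -0.42) without anti-CD40 replicate 2. In HET hosts, where the anti-CD40 group also held the skin-rich libraries, all 12 were lower with anti-CD40, from -0.04 for Mgat5 to -1.67 for Abca6. Tacc2, Mgat5, Cers1, Pde3a and Scyl3 each overlap another tested gene, and Gm5898 lies within Otud7a, so their reads may be uncertain in the same way. Exons were not compared here either. In the 5 other L6 libraries, 7 of 60 values of the 12 lower genes lay below the WT IgG range, again without the share over all genes.

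A pattern of position was noticed after the values were seen. Of the 12076 genes with a position and a mean log2 value of at least 1, 126 lay below IgG without overlap (1.04%), and chromosome 1 held 22 of them, which is 3.16% of its 697 genes. The mitochondrial genome held 2 of its 15 genes (13.3%). Chromosome 8 held 17 (2.57% of 661) and chromosome 7 held 15 (1.71% of 876). Without anti-CD40 replicate 2, chromosomes 1 and 8 held 26 each of 177. The combination, set against the same IgG libraries, had 3 on chromosome 1 and 6 on chromosome 8 of 110. The median gene of chromosome 1 stood at -0.03, -0.25 and -0.05 in anti-CD40 replicates 1 to 3 relative to the mean of the 5 IgG libraries, so replicate 2 was again the lowest. In replicate 2 the median over all chromosomes was -0.11. Chromosomes 13 (-0.28) and X (-0.27) stood below chromosome 1 there, with 0.235% and 1.25% of their genes below IgG without overlap. No test was made of this pattern.

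**Figure D2:**
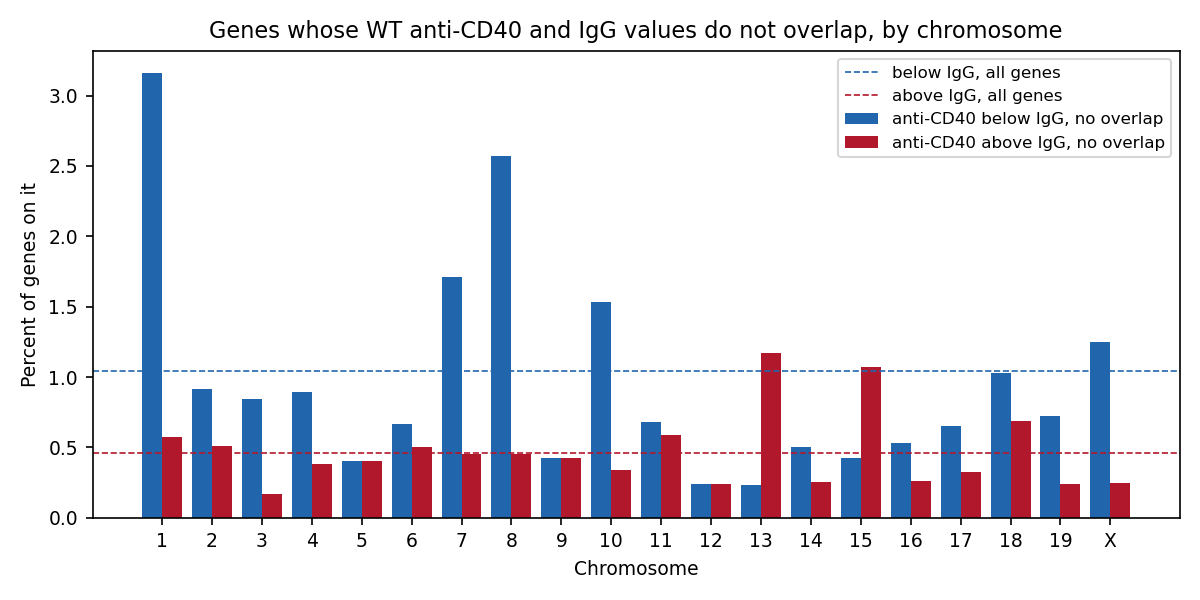
Bars give, for chromosomes 1 to 19 and X (x axis), the percent of its genes (y axis) whose 3 anti-CD40 values lie all below (blue) or all above (red) the 5 IgG values, over genes with a mean log2 value of at least 1; dashed lines give the same over all chromosomes (1.04% and 0.464%). Chromosomes 1 (3.16%) and 8 (2.57%) have the tallest blue bars of those drawn, and chromosome 13 (1.17%) the tallest red bar.

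The receptor and its adaptors were at like levels in both groups. Cd40 had 6, 24 and 18 reads with anti-CD40 and 13, 9, 4, 12 and 9 reads with IgG, at most 1.15 CPM in any of the 8 tumors. The groups overlapped, and the log2 difference was 0.39 (exact permutation p = 0.43, two-sided, n = 3 and 5, Benjamini-Hochberg adjusted p = 0.54 over 5 genes; the smallest p this design allows is 0.0357). Without anti-CD40 replicate 2 it was -0.03. Of the 9 receptor and adaptor genes measured, 4 were higher, 5 lower and 0 passed the test, with a median of -0.01. Traf3, an adaptor that restrains the alternative NF-kB pathway, was at 90.1, 49.7 and 75.4 CPM against 69.8 to 88.1 CPM. Traf6, an adaptor with ubiquitin ligase activity on the main NF-kB pathway, was at 59.3, 34.5 and 50.3 CPM against 38.7 to 67.7 CPM. In both genes replicate 2 was the lowest of the 8 libraries.

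The 22 NF-kB factors and feedback targets had a median difference of 0.01, with 12 higher and 0 called by limma. Tnip1, a feedback inhibitor of NF-kB, stood at 89.8, 63.5 and 98.3 CPM with anti-CD40 and 75.7 to 128.5 CPM with IgG. Cflar, an inhibitor of death receptor signaling, stood at 226, 69.0 and 175 CPM against 163 to 281 CPM. Ier3, an early response gene, stood at 103, 250.8 and 73.7 CPM against 53.9 to 148 CPM. For Cflar and Ier3 the treated replicates spread more widely than the controls, with replicate 2 at the extreme.

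Genes of activated antigen-presenting cells had a small median difference. Of 13 measured, 9 were higher, with a median of 0.19 that became -0.19 without anti-CD40 replicate 2 and 0.39 without replicate 1, and 0 passed the test. Ccr7, the receptor that guides dendritic cells to lymph nodes, did not overlap between groups, at 0.291, 0.383 and 0.312 CPM with anti-CD40 and 0.106 to 0.276 CPM with IgG, but its log2 difference of 0.73 ± 0.61 had a limma unadjusted p of 0.25. The costimulatory genes Cd80 and Cd86, named here after their values were seen, reached at most 0.751 and 1.49 CPM in any of the 8 libraries. Cd274 (PD-L1, the checkpoint ligand of PD-1) had 547, 232 and 757 reads with anti-CD40 and 295 to 739 reads with IgG, a log2 difference of -0.43 (exact permutation p = 0.32, two-sided, n = 3 and 5, Benjamini-Hochberg adjusted p = 0.54).

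Inflammatory cytokines and chemokines were higher throughout the list, without a call. All 20 of the members measured were higher with anti-CD40, with a median log2 difference of 0.81 against -0.01 for all genes, and 0 of 20 passed the test. Without anti-CD40 replicate 2, 17 of 20 were higher and the median was 0.60. With keratinocyte and muscle levels as covariates, 18 of 20 were higher and the median was 0.59. It was 0.41 without both skin-rich libraries, 0.51 without IgG replicate 3 and 1.25 without anti-CD40 replicate 1. For 14 of the 20, all 3 treated libraries were above the IgG median, which held for 19.7% of all genes tested. None was without overlap, since IgG replicates 4 and 5 were high as well: the list's mean log2 level was 0.89, 2.44 and 1.35 with anti-CD40 and 0.06, -0.02, -0.61, 1.89 and 1.25 with IgG. That ordering shows 3 low and 2 high control tumors, with the treated tumors across the upper part of the range.

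The 4 members with the smallest unadjusted p, chosen after their values were seen, were Ccl3, Il1b, Il33 and Cxcl3. Il1b, the inflammasome-processed cytokine of myeloid cells, was at 2.17, 12.7 and 3.59 CPM with anti-CD40 and 0.643, 0.177, 0.396, 2.75 and 9.84 CPM with IgG, a log2 difference of 1.98 ± 0.86 (limma unadjusted p = 0.03, adjusted p = 0.62). Ccl3, a chemokine for monocytes and T cells, was at 2.54, 16.7 and 2.85 CPM against 0.322, 0.619, 0.623, 4.06 and 7.62 CPM, a log2 difference of 1.81 ± 0.75. In both genes IgG replicates 4 and 5 overlapped the treated tumors and IgG replicates 1 to 3 lay below all of them. Cxcl3, a neutrophil chemokine, differed by 2.23 ± 1.09, and Il33, an alarmin of epithelial and stromal cells, by 1.32 ± 0.63. The differences were 1.26 for Il1b, 0.94 for Ccl3, 1.32 for Cxcl3 and 0.67 for Il33 without anti-CD40 replicate 2. The most abundant members were flatter: Ccl2, a monocyte chemokine, was at 7.83, 4.93 and 7.34 CPM against 2.62 to 18.2 CPM, Csf1 differed by 0.11 and Il18 by 0.02, and both turned below 0 without anti-CD40 replicate 3 (-0.03 and -0.21).

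**Figure D3:**
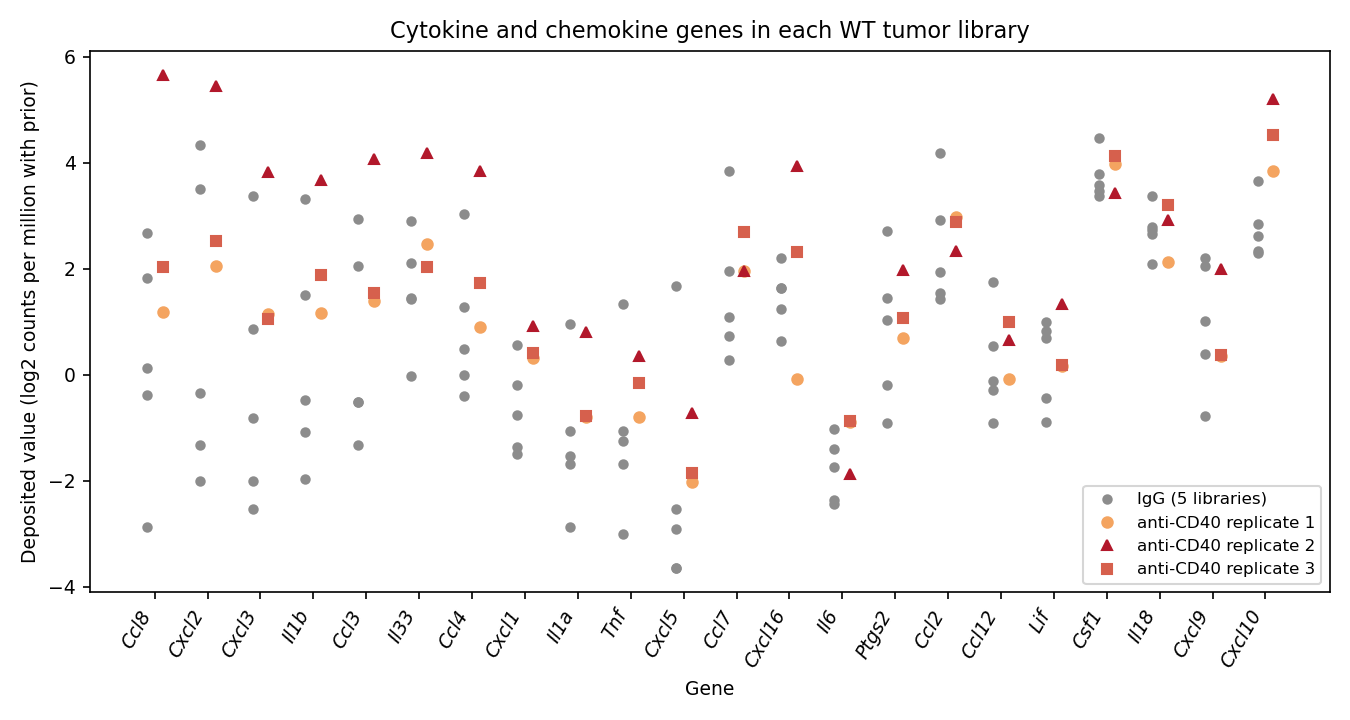
Deposited log2 CPM values (y axis) of inflammatory cytokine and chemokine genes, with Cxcl9 and Cxcl10 last (x axis), in each WT tumor library, with grey circles for the 5 IgG libraries and colored markers for the 3 anti-CD40 replicates. Most treated values sit in the upper part of the IgG spread, anti-CD40 replicate 2 is often highest, and Cxcl10 is without overlap (14.3 to 37.0 against 4.81 to 12.5 CPM).

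Cell type markers gave the same picture of a wide spread led by replicate 2. Of 14 neutrophil genes listed, 7 passed the expression filter over all 30 libraries. All 7 were higher, with a median of 1.06 and 0 called. The median ran from 0.36 without anti-CD40 replicate 2 to 1.86 without IgG replicate 4. It was 0.65 without IgG replicate 3 and 0.70 without IgG replicate 2. S100a8, a calprotectin subunit that keratinocytes can also make, was at 3.25, 92.7 and 10.7 CPM with anti-CD40 and 6.57, 0.929, 0.283, 10.7 and 6.72 CPM with IgG. Macrophage and monocyte genes had a median of 0.39, with 18 of 21 higher, which became -0.31 without replicate 2, -0.01 without IgG replicate 3, 0.84 without IgG replicate 4 and 0.99 without anti-CD40 replicate 1. Their summed level ran from 109 to 724 CPM with anti-CD40 and 66.2 to 522 CPM with IgG. Cd68, a lysosomal protein of macrophages, was at 24.1, 41.4 and 28.8 CPM against 15.0 to 46.1 CPM.

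Lymphocyte transcripts were scarce in both groups. Of 24 T cell genes listed, 7 passed the expression filter. That filter used all 30 libraries, so a gene could pass through groups other than the 2 compared. All 7 T cell genes measured were higher, with a median of 0.53 (0.34 without anti-CD40 replicate 2, 0.95 without replicate 3), and 0 passed the test. Their summed level was 34.1 to 71.2 CPM with anti-CD40 and 18.6 to 40.1 CPM with IgG. Cd8a, the coreceptor of cytotoxic T cells, had 1, 18 and 8 reads with anti-CD40 and 7, 3, 0, 2 and 1 reads with IgG (log2 difference 1.02, exact permutation p = 0.32, two-sided, n = 3 and 5, Benjamini-Hochberg adjusted p = 0.54). Pdcd1, which encodes PD-1, had 2, 22 and 3 reads against 6, 0, 0, 3 and 2, and for both genes replicate 2 held most of the treated reads. Ifng, the main cytokine of cytotoxic and type 1 helper T cells, had 1 read in the 3 anti-CD40 libraries and 0 in the 5 IgG libraries, which allows up to 0.0297 CPM over the IgG group (3 reads, counting error only), so no fold is given. Of 15 B cell genes listed, 5 were measured, and 3 of these were higher. Their median was 0.21 and ran from -0.49 without anti-CD40 replicate 2 to 0.59 without replicate 1.

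Interferon response lists had medians at or below 0, and their direction rested on single libraries. The 26 interferon-gamma response genes measured had a median of -0.09, with 12 higher and 0 called, which ran from -0.45 without anti-CD40 replicate 3 to 0.21 without replicate 1. Type I interferon response genes had a median of -0.32, with 5 of 27 higher and 0 called. That median was 0.06 without anti-CD40 replicate 2 (17 of 27 higher) and -0.91 without replicate 3 (1 of 27 higher). MHC class I genes had a median of 0.08 (-0.08 without anti-CD40 replicate 2), and MHC class II genes 0.21, which became -0.80 without anti-CD40 replicate 2 and 1.02 without replicate 1. Cd74, the invariant chain of class II, was at 2.12, 54.6 and 7.65 CPM with anti-CD40 and 19.6, 3.8, 8.32, 18.9 and 11.6 CPM with IgG, so the treated group held both the lowest and the highest library.

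The interferon-gamma and MHC lists had larger medians in HET than in WT hosts, without a called gene. The gap was not kept in a fit with the L number, whose L5 to L6 shift rests on WT anti-PD1 replicate 4. In HET hosts the same list of interferon-gamma response genes had a median anti-CD40 minus IgG difference of 2.09, against -0.09 in WT hosts, and the difference of the 2 responses had a median of 2.36. The interaction test gave 0 of 15002 genes at an adjusted p under 0.05 (0%) and 334 at an unadjusted p under 0.05 (2.23%), and 21 of the 26 listed genes were among the 334. MHC class I had a median of 1.34 in HET and 0.08 in WT hosts, with 8 of 12 at an unadjusted p under 0.05 for the difference, and MHC class II 2.89 and 0.21, with 5 of 8. Cxcl10 was unlike its list, with a response of 1.52 ± 0.62 in HET hosts and 1.78 ± 0.64 in WT hosts and an unadjusted limma p of 0.77 for the difference. The inflammatory list had medians of 1.27 in HET and 0.81 in WT hosts, and 0 of its 20 genes reached an unadjusted p under 0.05 for the difference. When the L number was added to the fit, the median difference of the 2 responses was -0.14 for interferon-gamma genes (0 of 26 at an unadjusted p under 0.05), 0.08 for MHC class I and -0.32 for MHC class II, and 93 of all genes reached that p. In that fit the WT response itself had medians of 2.08 for interferon-gamma genes, 0.86 for MHC class I and 3.29 for MHC class II. L6 is the only number that WT and HET libraries share, through HET IgG replicate 1, so genotype and L number can be separated only in part. Leaving out 1 library moved the count of 334 to 175 (HET anti-CD40 replicate 3), 197 (HET IgG replicate 2), 596 (WT anti-CD40 replicate 2) and 662 (HET IgG replicate 4). Skeletal muscle genes had list medians that differed as well (2.56 in HET, -0.04 in WT hosts). With the muscle level as a covariate, the median difference was 1.33 for interferon-gamma genes (2 of 26), 0.71 for MHC class I (1 of 12) and 1.60 for MHC class II (0 of 8), and 174 of all genes reached that p. Without HET anti-CD40 replicate 3, 8 of the 26 interferon-gamma genes did, with a median of 1.71, and without WT anti-CD40 replicate 1 also 8, with a median of 1.92.

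Skin genes had the largest list medians of the comparison, and single libraries carried most of them. All 11 basal keratinocyte genes (median 2.10), all 16 suprabasal and junction genes (2.62) and all 18 cornified envelope genes (2.08) measured were higher with anti-CD40, with 0 called, and the medians were 0.51, 0.94 and 0.24 without replicate 2 and 3.29, 4.39 and 3.70 without replicate 1. Krt14, a keratin of basal epidermis named after its values were seen, was at 1.17, 1105 and 88.4 CPM with anti-CD40 and 150, 0, 0, 0 and 7.14 CPM with IgG. Krt1, a keratin of differentiating epidermis, was at 0.0416, 254 and 1.56 CPM against 37.4 CPM in IgG replicate 1 and 0 in the other 4. Lor, the main protein of the cornified envelope, was at 0, 65.4 and 0.430 CPM against 7.45, 0, 0, 0 and 0.0529 CPM. Epidermal RNA was therefore abundant in anti-CD40 replicate 2, present in IgG replicate 1 and anti-CD40 replicate 3, and near 0 in anti-CD40 replicate 1.

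Hair follicle genes did not all follow the same library. Their summed level was 8.91, 396 and 89.4 CPM in anti-CD40 replicates 1 to 3 and 4.36 to 71.9 CPM with IgG. Their mean log2 level was instead highest in replicate 3, at -0.96, 0.04 and 2.99 in anti-CD40 replicates 1 to 3. Krt71, a keratin of the inner root sheath of the hair, was at 0.250, 0 and 12.8 CPM with anti-CD40 and 0 in all 5 IgG libraries. Krt25, its partner in the same sheath, was at 0.291, 0 and 9.92 CPM, with 1 IgG library at 0.0529 CPM and the rest at 0. Tchh, trichohyalin, was at 0.5, 0.240 and 10.6 CPM against 0 to 0.396 CPM. Krt71, Krt25 and Tchh were at their highest in anti-CD40 replicate 3, while replicate 2, with the most epidermal RNA, had no read of Krt71 or Krt25. Of 8 hair follicle genes 7 were higher and 0 called, and the list median was 2.86, and 1.02 without replicate 3. Skeletal muscle genes had 14 of 29 higher, a median of -0.04 and a summed level of 56.6 to 115 CPM with anti-CD40 and 53.8 to 157 CPM with IgG. Single libraries set that median: it was 0.30 without anti-CD40 replicate 2 (23 of 29 higher), 0.47 without IgG replicate 1, -0.39 without IgG replicate 2 and -0.64 without anti-CD40 replicate 3.

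**Figure D4:**
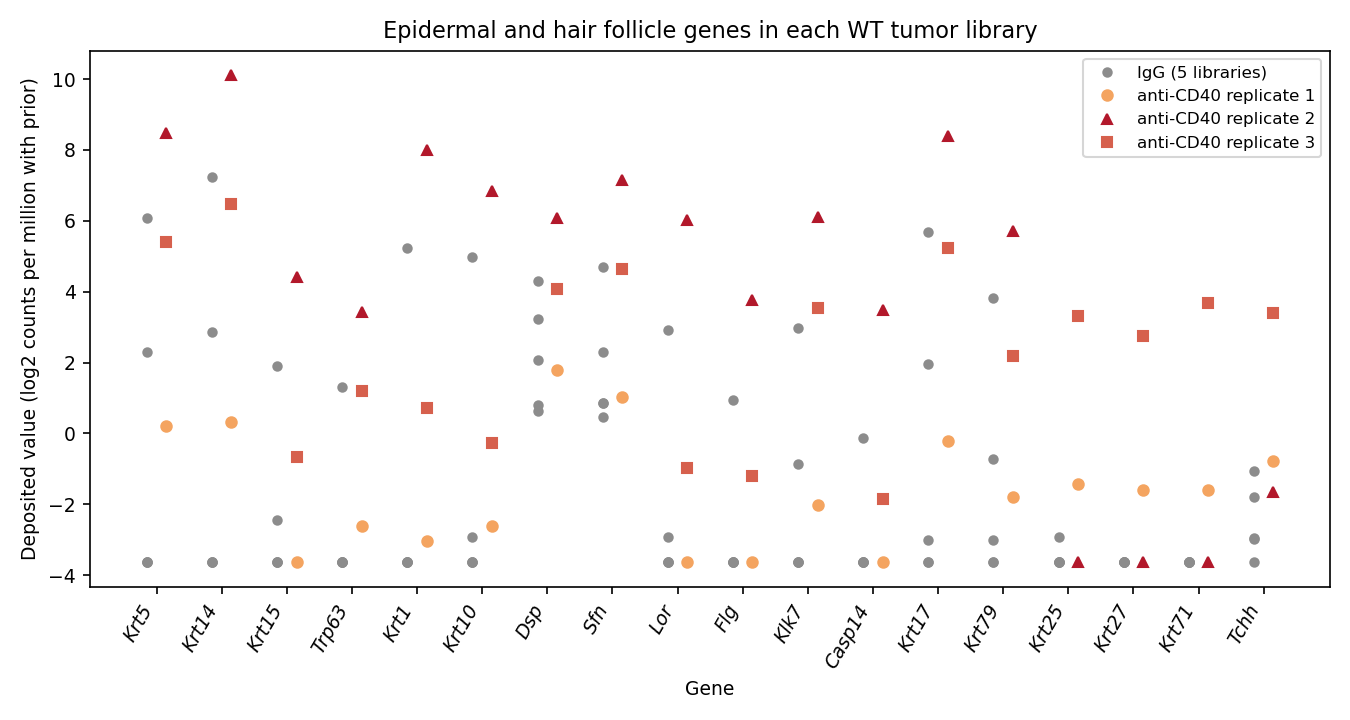
Deposited log2 CPM values (y axis) of epidermal and hair genes (x axis) in each WT tumor library, with grey circles for the 5 IgG libraries and colored markers for the 3 anti-CD40 replicates. Epidermal genes peak in anti-CD40 replicate 2 (Krt14 at 1105 CPM) and inner root sheath genes in replicate 3 (Krt71 at 12.8 CPM).

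Other stromal lists overlapped between the groups. Fibroblast and matrix genes had a median of 0.67 (0.31 without anti-CD40 replicate 2, 0.36 without IgG replicate 3, 1.05 without IgG replicate 4), with 19 of 24 higher and 0 called, and their summed level was 1484 to 2461 CPM with anti-CD40 and 994 to 3140 CPM with IgG. Endothelial genes had a median of 0.02. Eng, an endothelial coreceptor of TGF-beta, was at 235, 172 and 199 CPM against 187 to 231 CPM. Red blood cell genes were lower for all 10 measured, with a median of -0.72, and their summed level ran from 432 to 1350 CPM with anti-CD40 and from 379 to 7974 CPM with IgG, so the groups overlapped. The highest sum belonged to 1 library, and the median was 0.06 without IgG replicate 4, -0.10 without anti-CD40 replicate 3 and -1.61 without anti-CD40 replicate 2.

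The melanoma compartment differed little. Melanocyte genes had a median of -0.20, with 4 of 18 higher and 0 called (-0.10 without anti-CD40 replicate 2 or IgG replicate 2, -0.34 without anti-CD40 replicate 3). Ednrb, an endothelin receptor of melanocytes, was at 11.4, 4.74 and 8.71 CPM with anti-CD40 and 9.51 to 16.3 CPM with IgG, a log2 difference of -0.78 ± 0.36 (limma unadjusted p = 0.039, adjusted p = 0.62), and -0.43 without anti-CD40 replicate 2. Proliferation genes had a median of 0.26, with 26 of 31 higher, and 0.19 with 30 of 31 higher without anti-CD40 replicate 2. It was 0.15 without IgG replicate 5, the library with the lowest level of this list, and -0.03 with the L number in the fit. Kif20a, a mitotic kinesin, did not overlap, at 96.4, 86.1 and 85.4 CPM against 76.6, 73.6, 81.4, 79.8 and 61.4 CPM. Birc5, the survivin protein of dividing cells, was at 134, 249 and 128 CPM against 147, 92.3, 113, 107 and 78.1 CPM. Mki67, the most used proliferation marker, went the other way at 568, 243 and 367 CPM against 281 to 519 CPM, with a log2 difference of -0.12 that was 0.19 without anti-CD40 replicate 2. Hypoxia and glycolysis genes had a median of 0.01 and immediate early genes 0.11 (-0.01 without anti-CD40 replicate 1).

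Mitochondrially encoded transcripts were lower in the treated tumors. Of 15 measured, 13 were lower, with a median of -0.60, and all 15 were lower without replicate 2, with a median of -0.40. None was called. Their mean log2 level was 7.52, 6.56 and 7.09 with anti-CD40 and 7.21, 8.2, 7.92, 7.40 and 7.85 with IgG, so IgG replicates 1 and 4 overlapped the treated tumors. mt-Nd4, a subunit of respiratory complex I, was at 1016, 681 and 994 CPM against 1117 to 1737 CPM, and mt-Co3, a subunit of cytochrome oxidase, at 105.9, 61.2 and 95.3 CPM against 106 to 154 CPM. These 2 did not overlap, with log2 differences of -0.60 ± 0.38 and -0.58 ± 0.34, and -0.34 for mt-Co3 without anti-CD40 replicate 2. Their share of reads moved with skin content: the library with the most keratinocyte RNA, anti-CD40 replicate 2, had 0.73% of reads from these genes, and IgG replicate 1 had 1.32%, against 1.34% and 1.7% in the other treated libraries and 1.95% to 2.8% in the other IgG libraries. With keratinocyte and muscle levels as covariates the list median was -0.34, and the part of skin RNA in it was not otherwise tested.

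**Figure D5:**
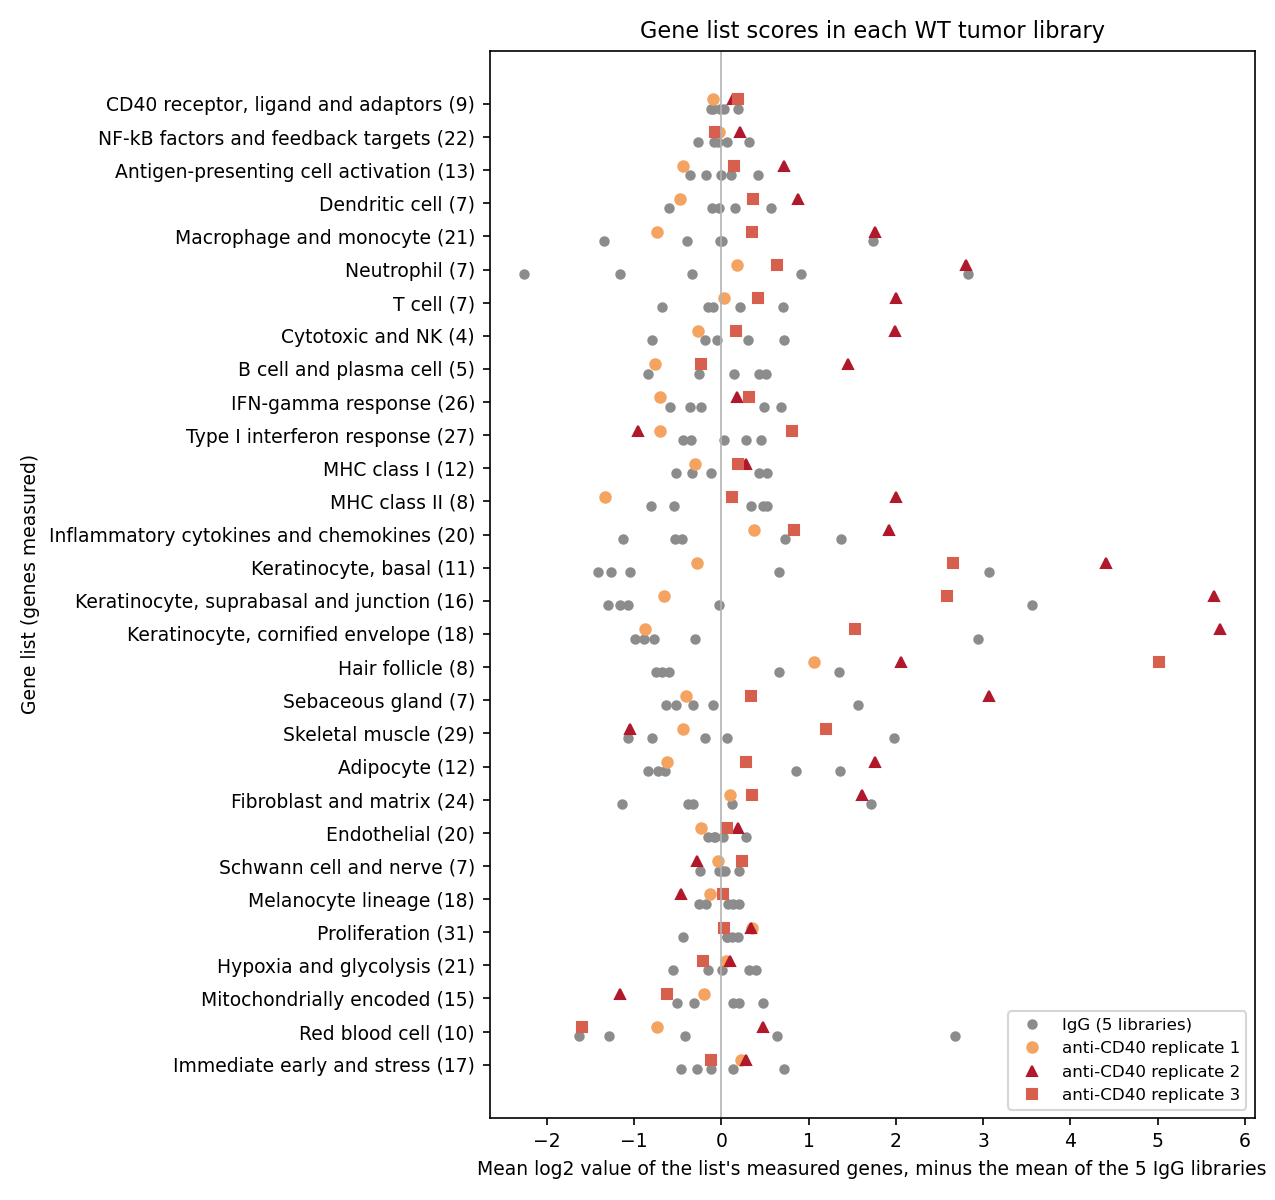
Mean log2 value of the measured genes of each list (y axis, number of genes in parentheses) in each WT tumor library, as a difference from the mean of the 5 IgG libraries (x axis); grey circles are IgG libraries and colored markers the 3 anti-CD40 replicates. Keratinocyte lists spread widely, from anti-CD40 replicate 1 within the IgG range to replicate 2 far above it.

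Set against the combination, which shares the L number, anti-CD40 alone also gave 0 of 15002 genes (0%) at a limma adjusted p under 0.05, with 799 at an unadjusted p under 0.05 (5.33%). That count was 74 without anti-CD40 replicate 2 and 3293 without replicate 1, and 105 with keratinocyte and muscle levels as covariates. It was 458, 367 and 507 without combination replicates 1, 2 and 3. The inflammatory list was higher with anti-CD40 alone for 19 of 20 genes, with a median of 0.66, and neutrophil genes had a median of 2.03. The inflammatory median was 0.50 with 15 of 20 higher without anti-CD40 replicate 2, 0.23 with 12 of 20 higher without combination replicate 1 and 1.27 without anti-CD40 replicate 1. With keratinocyte and muscle covariates it was 0.47, with 15 of 20 higher, and the neutrophil median was 1.54. The same difference held skin RNA: the medians were 3.35 for basal, 3.25 for suprabasal and 3.0 for cornified genes, and the summed suprabasal level was 40.8 to 64.9 CPM in the combination against 41.3 to 1116 CPM with anti-CD40 alone. Cxcl10 differed by 0.38 between anti-CD40 and the combination (limma unadjusted p = 0.60). The 3 skin medians were 1.82, 1.88 and 1.10 without anti-CD40 replicate 2. Set against the WT IgG libraries, the combination had an inflammatory median of -0.08, with 8 of 20 genes higher. Its neutrophil median against WT IgG was -0.97, with 0 of 7 higher.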

How the data were processed

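Per the labels' protocols, frozen tumors were extracted on a Maxwell instrument and libraries were made with a TruSeq kit. Reads were processed with STAR, edgeR and mm10, per the submitters' processing notes. The authors deposited 1 table of log2 CPM values for 18975 genes in 30 libraries. The lowest value in the table matched an added prior of 2 reads, adjusted for depth in each library. Subtracting that prior gave whole reads for 100% of values (tolerance 0.01 reads), from which CPM and read totals were computed. Genes with log2 above 0 in at least 3 libraries were kept (15002). The deposited log2 values were fitted with limma 3.58.1 (R 4.3.3, trend, robust off) over all 30 libraries with 1 mean per group and Benjamini-Hochberg adjustment. limma-voom on the recovered reads, as an alternative, called 0 genes. Exact permutation tests were used for 5 single genes. Gene positions came from GENCODE mouse release 21, matching 18837 identifiers. The 30 gene lists hold 542 genes, of which 517 are in the table and 452 passed the expression filter over all 30 libraries. The others, such as Cd40lg, did not enter the list values. Named genes were the 12 in each direction with no overlap between groups, a mean log2 value of at least 1 and the smallest p, and in each list the 3 with the highest mean plus those without overlap. 1 gene that this rule names is not reported here. Other genes are said to be chosen after their values were seen. The comparison and the lists were chosen with earlier results of these data known. The fit was tested on simulated data.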

Additional observations from a re-analysis of the deposited data

Results flagged for a closer look

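Of 59 results examined for a WT IgG library far from the other 4 (a gap over the range above 0.71), 6 met this rule, and chance alone flags about 1 in 20 groups. IgG replicate 1 held 5 of them. Its mean log2 level was 3.04 for suprabasal keratinocyte genes (others -1.82 to -0.55), 1.33 for cornified envelope genes (others -2.60 to -1.91) and 1.28 for sebaceous gland genes (others -0.92 to -0.38). In the same library Uba2 had a log2 value of 7.56 (others 7.25 to 7.33) and Ikbkb 6.49 (others 6.62 to 6.66), in both cases toward the anti-CD40 values. IgG replicate 5 had the lowest proliferation level, 6.38, where the others ran from 6.89 to 7.01.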

How the results depend on the processing

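No alternative gave a called gene between anti-CD40 and IgG, with library weights giving the only calls of any comparison made here. The 24 named genes were chosen for groups that do not overlap, which fixes their direction when a library is left out. With the L number as covariate the 12 higher genes ran from 0.00 for Uba2 and 0.07 for Mtrf1 to 2.41 for Cxcl10. The count at an unadjusted p under 0.05 (777) was 356 with the 8 libraries only, 509 with an L number covariate, 160 with keratinocyte and muscle covariates, 119 with a keratinocyte covariate, 148 without both skin-rich libraries and 2548 with library weights. Leaving out 1 library gave 75 (without anti-CD40 replicate 2) to 3213 (without anti-CD40 replicate 1), with 2209, 331 and 428 without IgG replicates 1, 2 and 3 and 1212 without anti-CD40 replicate 3. Replicate numbers did not pair the samples (same-number correlations -0.75, -0.52 and 0.19), and a replicate block gave 422. Those weights called 253 genes against the combination. The share of higher genes among the 777 was 52.5%, 68.0% with median centring, 30.3% with the 8 libraries, 75.2% with the L number and 36.2% with keratinocyte and muscle covariates. Leaving out 1 library, Cd40 ran from -0.03 (without anti-CD40 replicate 2) to 0.92 (without anti-CD40 replicate 1). With the L number as covariate, list medians were 0.14 (CD40 and adaptors), 0.23 (NF-kB), 0.71 (antigen-presenting cell activation), 2.31 (dendritic), 2.71 (macrophage), 2.56 (T cell), 2.81 (cytotoxic), 2.08 (interferon-gamma), 0.38 (type I interferon), 0.86 (MHC I), 3.29 (MHC II), 2.23 (inflammatory), 5.15 (hair), 1.89 (muscle), 2.65 (adipocyte), 1.97 (fibroblast), 0.99 (endothelial), 0.67 (Schwann), -0.03 (proliferation), -4.75 (red cell) and 0.65 (immediate early). That fit takes the shift between L5 and L6 from WT anti-PD1 replicate 4 alone, set against replicates 1 to 3 of its group. In the fit without covariates, the dendritic, cytotoxic, adipocyte and Schwann lists (7, 4, 12 and 7 genes measured) had medians of 0.47, 0.67, 0.31 and 0.04. Without anti-CD40 replicate 2 these were -0.02, -0.05, -0.19 and 0.04. The keratinocyte covariate gave -0.19 (cytotoxic), 0.02 (basal), 0.10 (suprabasal) and 1.30 (hair), and with muscle added 0.09 (suprabasal). This covariate is the mean of the basal, suprabasal and cornified genes. It removes their own level by construction, so the basal and suprabasal values are not informative. Library weights gave 0.43 (type I), 5.29 (hair) and -2.39 (red cell). The weights were 0.6, 0.21 and 3.47 for anti-CD40 replicates 1 to 3, so replicate 3 set most of the treated mean. Hair was 1.28 with log2(CPM + 1) and ran from 1.02 (without anti-CD40 replicate 3) to 3.42 (without replicate 2), Schwann was -0.23 with quantile normalization and ran from -0.11 (without IgG replicate 5) to 0.25 (without anti-CD40 replicate 3), and antigen-presenting cell activation -0.26 without both skin-rich libraries. A filter on the 8 libraries left no B cell gene and gave no value for that list. Covariates and libraries left out for skin were partly chosen after seeing the data. The causes were not tested. At 17.6 to 25.1 M reads, lymphocyte genes rest on few reads.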
